A study of Homo sapiens with 9 samples.

Results

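The genes described here are 40 genes of nucleolar ribosome biogenesis, chosen by symbol: the first row of the deposited count table bearing each symbol was taken. These genes, and the lists of other genes used below, were chosen with earlier results of these data known. Setting their counts beside the shares of all rows tested is therefore not an independent test. All 40 were found among the 30000 rows of the table, and all passed the filter on low counts, which left 18437 rows for testing. The RNA came from THP-1, a line grown from a human monocytic leukaemia, in 9 libraries of 3 groups with 3 replicates each. A first group had received ectosomes, vesicles shed by outward budding of the cell surface, and carries the shRNA label PKM2_KD. These are read here as ectosomes of Huh7 hepatoma cells depleted of PKM2, the M2 form of the glycolytic enzyme pyruvate kinase (gene PKM). Another group had received ectosomes of Huh7 cells with a scramble shRNA, and the control group (shRNA label Ctrl, no agent listed) is read as THP-1 cells without ectosomes. All groups are the same single cell line, and the sources used here give no dose, preparation or incubation time for the ectosomes. Nothing says that replicates came from separate cultures, so p-values measure the spread between these libraries only, which may be technical.

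Ribosome biogenesis begins in the nucleolus, where RNA polymerase I transcribes the ribosomal RNA precursor. Small nucleolar ribonucleoproteins modify the precursor, a large assembly called the small-subunit processome folds and cuts it, and further factors mature the 40S and 60S subunits and escort them out of the nucleus. The transcription factor MYC is known to activate many of these genes, often through the E-box sequence CACGTG near their start sites, and the pathway is usually more active in growing than in differentiated cells. The 40 genes cover each of these steps: 5 act in polymerase I transcription, 5 in box C/D small nucleolar ribonucleoproteins, 10 in the small-subunit processome, 5 in late 40S maturation and 12 in 60S assembly, and 3 encode abundant nucleolar RNA-binding proteins.

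Libraries held 17744587 to 23864381 counts, and mitochondrially encoded genes took 4.27% to 4.90% of them. Monocytic genes were present in every library, with PTPRC (the leukocyte antigen CD45) at means of 598 CPM with PKM2-knockdown ectosomes, 569.8 CPM with scramble ectosomes and 265 CPM in controls, and a summed level of 12 such markers of 2287 to 2468 CPM with PKM2-knockdown ectosomes, 1522 to 1589 CPM with scramble ectosomes and 1900 to 2271 CPM in controls. Single markers moved in opposite directions: 5 of the 12 rose and 4 fell with PKM2-knockdown ectosomes against control, 4 rose and 7 fell with scramble ectosomes, and 8 were higher and 0 lower with PKM2-knockdown than with scramble ectosomes. Over all rows tested 27% rose and 26.7% fell with PKM2-knockdown ectosomes, and 34.6% rose and 33.2% fell with scramble ectosomes. Between PKM2-knockdown and scramble ectosomes 31.4% of all rows tested were higher and 30.3% lower. CSF1R, the receptor of macrophage colony-stimulating factor, averaged 351 CPM with PKM2-knockdown ectosomes, 84.96 CPM with scramble ectosomes and 35.5 CPM in controls. AZU1, a granule protein gene of immature myeloid cells, averaged 255 CPM with PKM2-knockdown ectosomes, 79.4 CPM with scramble ectosomes and 1015 CPM in controls, and fell 3.98-fold with PKM2-knockdown and 12.8-fold with scramble ectosomes against control (adjusted p = 4.72e-07 and 4.76e-09). CD68 was under 1 CPM in every library, and MPO in every library of both ectosome groups. CPM gives the share of a library's counts that a gene took, after scaling by TMM, a normalization that centres the bulk of the genes. Of 12 hepatocyte markers 7 have a row, with a summed level of 40.8 to 47.4 CPM with PKM2-knockdown ectosomes, 6.003 to 8.004 CPM with scramble ectosomes and 16.3 to 18.3 CPM in controls. With PKM2-knockdown ectosomes most of it was SERPINA1, the gene of alpha-1-antitrypsin, which monocytes also express. SERPINA1 averaged 37.4 CPM with PKM2-knockdown ectosomes, 3.53 CPM with scramble ectosomes and 2.01 CPM in controls. It was 17.8-fold higher with PKM2-knockdown ectosomes than in controls (adjusted p = 9.93e-06). In controls most of the sum was GPC3, at a mean of 13.4 CPM. GPC3 fell to 4.75 CPM with PKM2-knockdown ectosomes and 2.69 CPM with scramble ectosomes (adjusted p = 2.14e-05 and 5.37e-07). Of the 4 hepatocyte markers tested, 1 rose and 2 fell with PKM2-knockdown ectosomes, and 0 rose and 2 fell with scramble ectosomes. The albumin gene ALB averaged 0.448 CPM with PKM2-knockdown ectosomes, 0.113 CPM with scramble ectosomes and 0.111 CPM in controls, and TTR and HNF4A were at 0 in all libraries with PKM2-knockdown ectosomes and in all controls. The part of these marker changes in the results on the 40 genes was not tested. PKM in the THP-1 libraries stood at 2181 to 2454 CPM with PKM2-knockdown ectosomes, 3376 to 3573 CPM with scramble ectosomes and 428 to 789 CPM in controls, which does not measure the knockdown in the Huh7 cells. Control replicate 3 differed from its group for the genes described here: 37 of the 40 were above the mean of control replicates 1 and 2, by a median log2 difference of 0.34, where the median over the 9864 rows with a mean of at least 10 CPM was 0.054.

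Nearly all of the 40 genes were lower with PKM2-knockdown ectosomes than in control cells. Of the 40, 38 fell and 0 rose, the median log2 ratio being -0.77, and 8 of them fell at least 2-fold (7.22% of all rows tested did so, and 5.54% of rows with a mean of at least 10 CPM). The 2-fold count rests on control replicate 3: without it 3 genes remained, MRTO4, RRP9 and RRS1. It was 13 without control replicate 2 and 5 without PKM2-knockdown replicate 1 or 2. Over all rows tested 26.7% were called lower in this comparison and 27% higher, and among rows with a mean of at least 10 CPM, the level reached by 39 of the 40, 35.3% were called lower and 28.8% higher, the median log2 ratio being -0.069. Being called means an adjusted p under 0.05 over all rows tested. The 38 genes also had every PKM2-knockdown library below every control library, as did 29.8% of all rows tested. Without control replicate 3 the count was again 38 lower and 0 higher. NOP2 and RRP1B were not called. Below, a log2 ratio is the fitted log2 fold change of the group named first, given with its SE. In bulk RNA, fewer cells of a type and less RNA per cell cannot be told apart, and a CPM is a share of the library's RNA, not an amount per cell.

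With scramble ectosomes the set was divided. Against control 22 of the 40 genes fell, 5 rose and 13 were not called, the median log2 ratio being -0.33. Over all rows tested 33.2% were called lower and 34.6% higher, and among rows with a mean of at least 10 CPM 33.3% were called lower and 41.3% higher, with a median of 0.078. The genes that rose were RRN3, DDX21, DDX10, PNO1 and GRWD1. Without control replicate 3 the count was 22 lower and 9 higher, POLR1C, UTP4, RRP1B and GNL3 then being called higher, and with scaling by library totals alone it was 27 lower and 3 higher. That scaling moved the median log2 ratio of all rows to -0.21, and the share of calls that were rises fell to 40.2% with it, against 51.0% with TMM.

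Set directly against scramble ectosomes, PKM2-knockdown ectosomes went with lower levels of 24 of the 40 genes and a higher level of 1, NOP56, the other 15 not being called. The median log2 ratio was -0.42. Over all rows tested 30.3% were called lower and 31.4% higher, and among rows with a mean of at least 10 CPM 40.6% were called lower and 28.6% higher, with a median of -0.13. In 33 genes every PKM2-knockdown library was below every scramble library, as in 37.1% of all rows tested. Without control replicate 3, which enters this comparison through the shared estimate of the spread, 34 were called lower and 1 higher. With library totals 18 were lower and 2 higher, the median of all rows then being 0.20 and the share of calls that were rises 61.9%, against 50.9% with TMM. Both ectosome groups were set against the same controls, so this comparison also tests whether their effects differ.

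**Figure D1:**
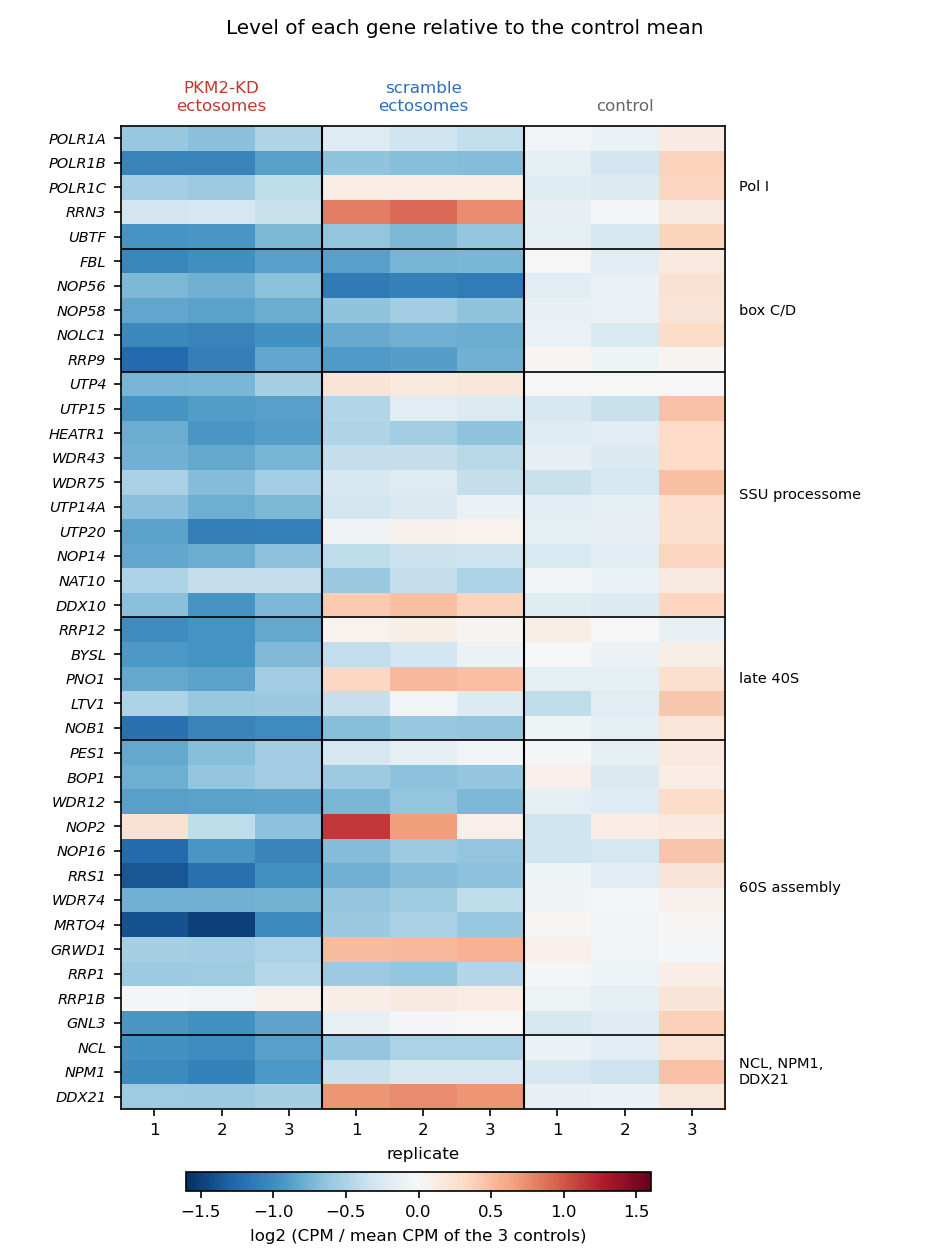
Heat map of the 40 genes (rows, grouped by role) in the 9 libraries (columns: PKM2-knockdown ectosomes, scramble ectosomes, control, replicates 1 to 3 each), coloured by the log2 of CPM over the mean of the 3 controls. The PKM2-knockdown libraries are blue in nearly every row. The scramble libraries are red for RRN3, DDX21, DDX10, PNO1 and GRWD1. They are palely or unevenly red for POLR1C, UTP4, RRP12, NOP2 and RRP1B, which were not called against control. Control replicate 3 is above the mean of the other controls in 37 rows.

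The 40 genes together took 0.261% ± 0.0113 of all counts with PKM2-knockdown ectosomes, 0.333% ± 0.004 with scramble ectosomes and 0.475% ± 0.0718 in controls (SD, n = 3 each). Single libraries had 0.258%, 0.251% and 0.274% with PKM2-knockdown ectosomes, 0.329%, 0.337% and 0.335% with scramble ectosomes, and 0.433%, 0.434% and 0.558% in controls, so the groups did not overlap. The highest share was that of control replicate 3. These are shares of the raw library totals without TMM scaling, unlike the CPM values. NPM1 and NCL carried much of the sum: without them the shares were 0.164% with PKM2-knockdown ectosomes, 0.206% with scramble ectosomes and 0.281% in controls. The coefficient of variation between replicates had a median over the genes of 6.13% with PKM2-knockdown ectosomes, 4.10% with scramble ectosomes and 15.97% in controls. Per kilobase of exonic length, control means ran from 244 CPM per kb for NPM1, 133 for NCL and 65.7 for FBL down to 2.09 for UTP20 and 0.212 for NOP2. That length counts every annotated exon of a gene and can exceed the length of its transcript, so different genes are compared only roughly.

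E-boxes in the promoters of these genes are shown because MYC, whose transcript also fell, is known to bind them. RefSeq promoter windows (GRCh38.p14, 250 bases before to 50 after a start site) were matched by symbol to 34 of the 40 genes, and NOP58, NOLC1, RRP12, BOP1, RRS1 and RRP1B had none in the table used. The palindrome CACGTG, which reads the same on both strands, was in the windows of 16 of the 34 genes (47.1%), against 8.77% of all genes with a window, 13.2% of genes with a mean of at least 10 CPM in these libraries and 25.5% of the other ribosome biogenesis genes. Its centre was within 50 bases of a start site in 15 of the 34 genes (44.1%), against 5.72% of the genes with a mean of at least 10 CPM and 3.66% of all. Of the 5 genes that rose with scramble ectosomes 2 had a match, of the 18 with a window that fell 7 had a match, and of the 11 not called 7 had a match. A match is a run of letters and does not show that a factor binds. Stretches around the match, 5′ to 3′ on the gene's strand with the E-box in capitals, are given for genes of different steps.
RRP9 (chr3:51941892-51941921, minus strand): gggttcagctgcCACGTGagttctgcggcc
FBL (chr19:39846356-39846385, minus strand): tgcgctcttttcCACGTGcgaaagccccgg
UTP20 (chr12:101280083-101280112, plus strand): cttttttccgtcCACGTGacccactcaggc
PNO1 (chr2:68157885-68157914, plus strand): ggtgcagctgcgCACGTGtttcagccggca
DDX21 (chr10:68956604-68956633, plus strand): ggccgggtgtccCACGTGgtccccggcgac
MRTO4 (chr1:19251807-19251836, plus strand): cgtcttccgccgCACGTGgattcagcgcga
GNL3 (chr3:52686026-52686055, plus strand): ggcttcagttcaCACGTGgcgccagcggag

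**Figure D2:**
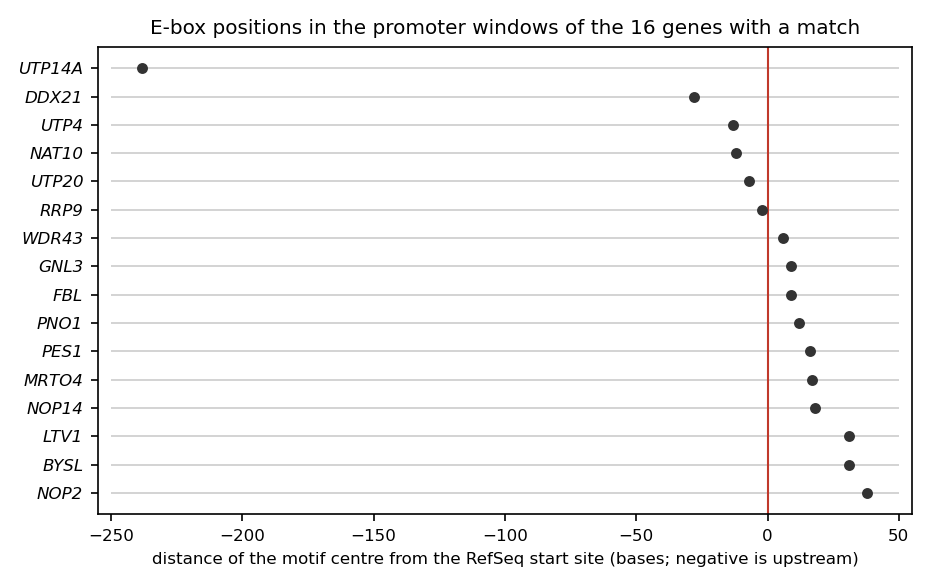
Position of the E-box in the promoter window of the 16 genes that have it (rows), as the distance in bases of the motif's centre from the RefSeq start site (x axis, the vertical line marking the start site). In 15 genes the point lies within 50 bases of the start site, and in UTP14A it lies far upstream, at -238.

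MYC itself was at 90.3, 99.1 and 97.5 CPM with PKM2-knockdown ectosomes, at a mean of 60.4 CPM with scramble ectosomes and at a mean of 264 CPM in controls. It fell 2.75-fold with PKM2-knockdown ectosomes (log2 ratio -1.46 ± 0.13 SE, adjusted p = 7.53e-06) and 4.36-fold with scramble ectosomes (log2 ratio -2.13 ± 0.14 SE, adjusted p = 2.23e-07). Among the 9 genes of the MYC network MXD1, which encodes an antagonist of MYC that pairs with MAX, had means of 203 CPM with PKM2-knockdown ectosomes, 173 CPM with scramble ectosomes and 22.6 CPM in controls. Of the 9, 2 rose and 4 fell with each kind of ectosome against control. Over all rows tested 27% rose and 26.7% fell with PKM2-knockdown ectosomes, and 34.6% rose and 33.2% fell with scramble ectosomes. MXD4 fell 1.57-fold with PKM2-knockdown ectosomes and MXD3 fell 3.37-fold with scramble ectosomes (adjusted p = 0.000118 and 2.81e-06). MYC was lowest with scramble ectosomes, where 22 of the 40 genes fell, 5 rose and 13 were not called against control. The part of MYC in any of the differences was not tested.

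Polymerase I transcription genes fell with PKM2-knockdown ectosomes against control in 5 of 5 cases, where 26.7% of all rows tested did. RRN3 (chromosome 16, 15060022 to 15094317, minus strand, GRCh38), the initiation factor that brings polymerase I to the promoter, stood at 35.0, 35.2 and 33.6 CPM with PKM2-knockdown ectosomes, 75.9, 80.5 and 72.5 CPM with scramble ectosomes, and 39.3, 42.0 and 47.3 CPM in controls. The groups did not overlap, and the scramble libraries were the highest. RRN3 was 2.20-fold lower with PKM2-knockdown than with scramble ectosomes (log2 ratio -1.14 ± 0.09 SE, adjusted p = 1.39e-06), 1.24-fold lower than in controls (adjusted p = 0.0107), and rose 1.78-fold with scramble ectosomes against control (adjusted p = 7.63e-06). The related loci RRN3P1, RRN3P2 and RRN3P3 held together 43.6% as many reads as RRN3, so its counts may have been shared with them. POLR1A (chromosome 2, 86020216 to 86106155, minus strand) and POLR1B (chromosome 2, 112541915 to 112577150, plus strand) encode the catalytic core of the polymerase. POLR1B had 18.4, 18.7 and 21.1 CPM with PKM2-knockdown ectosomes, 24.7, 24.1 and 23.96 CPM with scramble ectosomes, and 34.6, 31.3 and 50.01 CPM in controls, and fell 1.99-fold with PKM2-knockdown ectosomes (adjusted p = 0.000337) and 1.59-fold with scramble ectosomes (adjusted p = 0.00273). POLR1A fell 1.498-fold with PKM2-knockdown ectosomes and 1.24-fold with scramble ectosomes (adjusted p = 0.000268 and 0.00978). UBTF, which encodes the upstream binding factor of ribosomal DNA, fell 1.82-fold with PKM2-knockdown ectosomes and 1.58-fold with scramble ectosomes. POLR1C, a subunit shared with polymerase III, was at 27.1, 26.6 and 29.9 CPM with PKM2-knockdown ectosomes, 42.9, 43.0 and 43.0 CPM with scramble ectosomes and 34.7, 34.1 and 50.2 CPM in controls. It was 1.54-fold lower with PKM2-knockdown than with scramble ectosomes (adjusted p = 0.00241) and was not called between scramble ectosomes and control (adjusted p = 0.461, or 0.000710 and higher without control replicate 3).

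Box C/D ribonucleoprotein genes, whose products carry out and assist 2′-O-methylation of ribosomal RNA, fell in 5 of 5 cases with each kind of ectosome against control. Over all rows tested 26.7% fell with PKM2-knockdown ectosomes and 33.2% with scramble ectosomes. FBL (chromosome 19, 39834458 to 39846414, minus strand) encodes fibrillarin, the methyltransferase. It stood at 69.5, 72.4 and 78.3 CPM with PKM2-knockdown ectosomes, 78.2, 85.5 and 86.1 CPM with scramble ectosomes, and 143, 126 and 159 CPM in controls. Both ectosome groups lay well below the controls and overlapped each other. FBL fell 1.95-fold with PKM2-knockdown ectosomes (log2 ratio -0.96 ± 0.10 SE, adjusted p = 1.41e-05) and 1.72-fold with scramble ectosomes (log2 ratio -0.78 ± 0.09 SE, adjusted p = 3.04e-05). NOLC1, which encodes a chaperone of these particles, and RRP9, a protein of the U3 particle, fell by 2.03-fold (NOLC1) and 2.06-fold (RRP9) with PKM2-knockdown ectosomes, and by 1.73-fold and 1.80-fold with scramble ectosomes. NOP58, a core protein, fell 1.77-fold with PKM2-knockdown ectosomes and 1.53-fold with scramble ectosomes.

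NOP56 (chromosome 20, 2652145 to 2658393, plus strand), the partner of NOP58 in the same particle core, had the lowest levels with scramble ectosomes. It stood at 63.3, 61.5 and 66.2 CPM with PKM2-knockdown ectosomes, 47.6, 49.4 and 48.2 CPM with scramble ectosomes, and 91.9, 97.6 and 124 CPM in controls. The 3 groups did not overlap. NOP56 fell 1.64-fold with PKM2-knockdown ectosomes (log2 ratio -0.72 ± 0.11 SE, adjusted p = 0.000224) and 2.16-fold with scramble ectosomes (log2 ratio -1.11 ± 0.11 SE, adjusted p = 4.88e-06). It was 1.32-fold higher with PKM2-knockdown than with scramble ectosomes (log2 ratio 0.40 ± 0.11 SE, adjusted p = 0.00786, in a range of 3.08e-06 to 0.0327 over the alternatives). NOP58 was not called in that comparison (log2 ratio -0.22 ± 0.09 SE, adjusted p = 0.0661, or 0.00175 and lower without control replicate 3). Of the 17 small nucleolar RNA genes annotated inside 5 of the 40 genes, 8 had a row and none held more than 36 reads in a group, too few to set beside their hosts in these libraries.

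**Figure D3:**
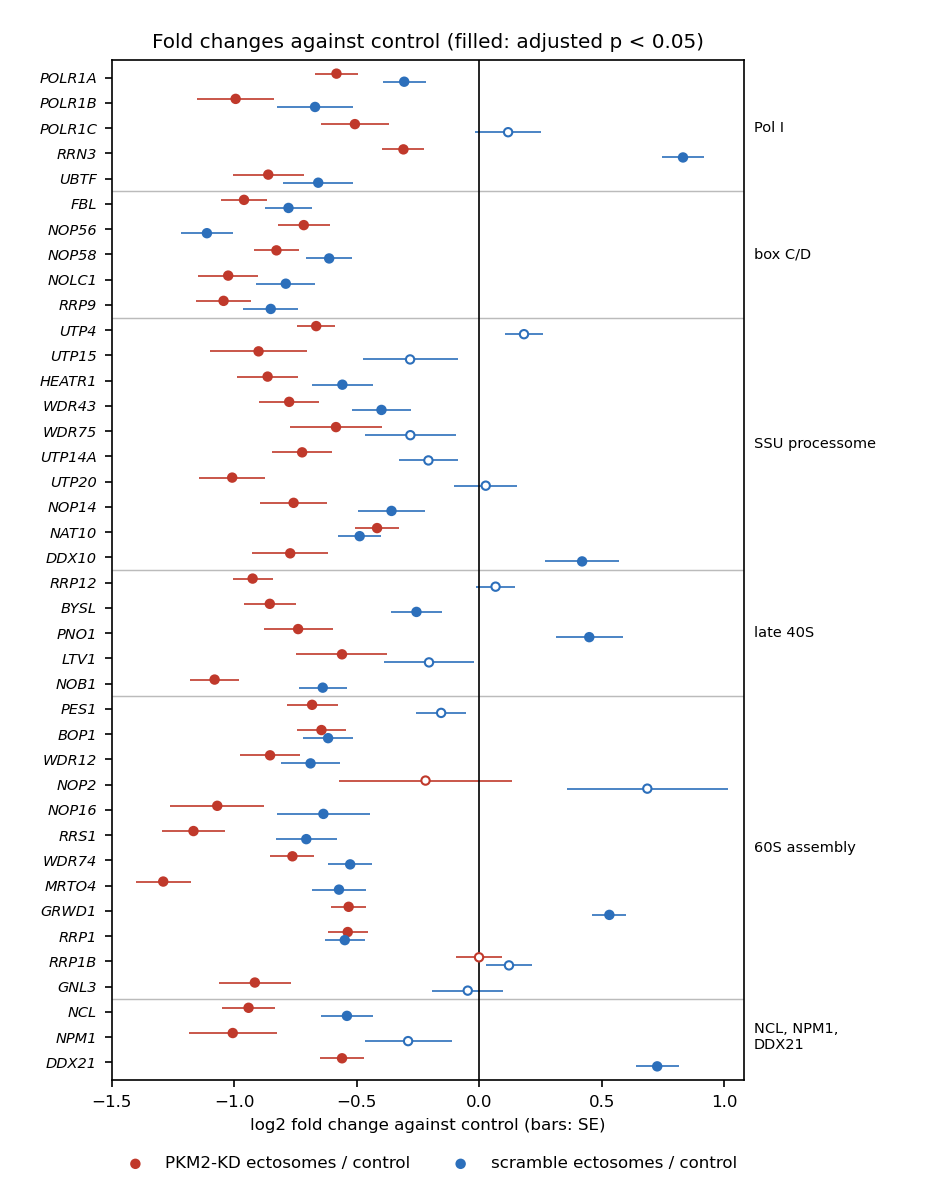
Log2 fold change against control of each of the 40 genes (rows, grouped by role) for PKM2-knockdown ectosomes (red) and scramble ectosomes (blue), with bars of 1 SE and filled points for adjusted p under 0.05. The red points lie left of 0 for 38 called genes, and the blue points lie right of 0 and filled for 5 genes.

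Small-subunit processome genes fell in 10 of 10 cases with PKM2-knockdown ectosomes against control. Over all rows tested 26.7% were called lower in that comparison. With scramble ectosomes 4 fell (HEATR1, WDR43, NOP14 and NAT10), 1 rose (DDX10) and 5 were not called. The share that fell, 40%, was near the 33.2% of all rows tested, of which 34.6% rose. Of the 10 genes, 7 were lower with PKM2-knockdown than with scramble ectosomes, as were 30.3% of all rows tested and 40.6% of rows with a mean of at least 10 CPM. UTP20 (chromosome 12, 101280109 to 101386616, plus strand), a large scaffold protein, stood at 11.6, 9.71 and 9.91 CPM with PKM2-knockdown ectosomes, 20.2, 22.0 and 21.8 CPM with scramble ectosomes, and 18.8, 19.1 and 25.1 CPM in controls. The PKM2-knockdown libraries were the lowest, while the other groups overlapped. UTP20 fell 2.01-fold against control (log2 ratio -1.01 ± 0.13 SE, adjusted p = 0.000107; 1.82-fold without control replicate 3) and 2.05-fold against scramble ectosomes (adjusted p = 6.67e-05), and scramble ectosomes against control gave a log2 ratio of 0.03 (SE 0.13). The subcomplex that joins the nascent precursor, known as the transcription UTPs, is represented by UTP4, UTP15, HEATR1, WDR43 and WDR75. UTP4 (chromosome 16, 69131291 to 69231130, plus strand) had 42.8, 43.3 and 50.02 CPM with PKM2-knockdown ectosomes, 83.2, 80.5 and 81.4 CPM with scramble ectosomes, and 71.7, 72.4 and 71.9 CPM in controls. It fell 1.59-fold against control (adjusted p = 4.03e-05) and 1.80-fold against scramble ectosomes (adjusted p = 5.24e-06), and missed the threshold between scramble ectosomes and control (log2 ratio 0.18 ± 0.08 SE, adjusted p = 0.0524; called higher without control replicate 3, adjusted p = 0.0273). Of the others HEATR1 and WDR43 fell 1.47-fold and 1.32-fold with scramble ectosomes, and UTP15 and WDR75 had log2 ratios of -0.28 and -0.28, not called, that turned to 0.020 and 0.027 without control replicate 3.

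DDX10 (chromosome 11, 108665025 to 108940930, plus strand), which encodes a DEAD-box RNA helicase, stood at 12.5, 10.3 and 12.01 CPM with PKM2-knockdown ectosomes, 26.4, 27.6 and 25.3 CPM with scramble ectosomes, and 17.3, 17.0 and 25.1 CPM in controls. The lowest scramble library was just above control replicate 3. DDX10 was 2.28-fold lower with PKM2-knockdown than with scramble ectosomes (log2 ratio -1.19 ± 0.15 SE, adjusted p = 6.77e-05) and 1.71-fold lower than in controls (adjusted p = 0.00169). Its rise of 1.34-fold with scramble ectosomes against control (log2 ratio 0.42 ± 0.15 SE, adjusted p = 0.0285) was lost in 6 of 15 alternatives, with adjusted p up to 0.185 with library totals. NAT10, an acetyltransferase of ribosomal RNA, fell 1.34-fold with PKM2-knockdown ectosomes and 1.40-fold with scramble ectosomes (adjusted p = 0.00238 and 0.000565), and was not called between them (log2 ratio 0.07 ± 0.09 SE). NOP14 fell 1.69-fold with PKM2-knockdown ectosomes and 1.28-fold with scramble ectosomes, and the call for scramble ectosomes (adjusted p = 0.0363) ended when any 1 scramble library was left out (adjusted p = 0.108, 0.0796 and 0.0802). UTP14A fell 1.65-fold with PKM2-knockdown ectosomes. UTP14C, a near copy, held 27.9% as many reads as UTP14A. The exonic bases of HEATR1 and NOP14 were shared to 23.2% and 17.1% with genes on the other strand, LGALS8 and NOP14-AS1.

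Late 40S maturation genes fell in 5 of 5 cases with PKM2-knockdown ectosomes against control, where 26.7% of all rows tested did. PNO1 and NOB1 act on the same particle, NOB1 (chromosome 16, 69741867 to 69754940, minus strand) being the nuclease that cuts the 3′ end of 18S ribosomal RNA and PNO1 (chromosome 2, 68157844 to 68176238, plus strand) the protein that covers the site until then. They differed with scramble ectosomes. PNO1 stood at 8.88, 8.67 and 10.7 CPM with PKM2-knockdown ectosomes, 19.8, 22.5 and 22.0 CPM with scramble ectosomes, and 14.2, 14.2 and 18.8 CPM in controls. NOB1 stood at 25.9, 28.5 and 29.4 CPM with PKM2-knockdown ectosomes, 36.8, 38.9 and 38.0 CPM with scramble ectosomes, and 56.5, 53.2 and 67.4 CPM in controls. For both genes the 3 groups did not overlap and the PKM2-knockdown libraries were the lowest, but scramble libraries were the highest for PNO1 and between the other groups for NOB1. PNO1 rose 1.36-fold with scramble ectosomes against control (log2 ratio 0.45 ± 0.14 SE, adjusted p = 0.0130), a call lost with library totals (adjusted p = 0.103) and without control replicate 2 (adjusted p = 0.0511), and was 2.28-fold lower with PKM2-knockdown than with scramble ectosomes (adjusted p = 3.42e-05). NOB1 fell 2.11-fold with PKM2-knockdown ectosomes (log2 ratio -1.08 ± 0.10 SE, adjusted p = 8.31e-06) and 1.56-fold with scramble ectosomes (adjusted p = 0.000171). Its exonic bases were shared to 20.2% with AC092115.3 on the other strand.

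RRP12, an export and maturation factor, was at 33.9, 35.2 and 38.7 CPM with PKM2-knockdown ectosomes, 71.2, 72.9 and 70.3 CPM with scramble ectosomes, and 72.9, 68.7 and 63.0 CPM in controls. It fell 1.90-fold against control (adjusted p = 6.31e-06) and 1.99-fold against scramble ectosomes (adjusted p = 2.68e-06), and the log2 ratio between scramble ectosomes and control was 0.07 (SE 0.08, not called). RRP12 was 1 of only 3 genes that in control replicate 3 were not above the mean of the other controls. BYSL (bystin) fell 1.81-fold with PKM2-knockdown ectosomes and 1.19-fold with scramble ectosomes (adjusted p = 6.34e-05 and 0.0475), the call for scramble ectosomes being lost in 7 of 15 alternatives. LTV1 fell 1.47-fold with PKM2-knockdown ectosomes (adjusted p = 0.0256, but 0.0540, 0.0815 and 0.0727 without replicates 1, 2 and 3 of that group). Its exonic bases are shared to 27.7% with AL049844.3 on the same strand.

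60S assembly genes fell in 10 of 12 cases with PKM2-knockdown ectosomes against control. Over all rows tested 26.7% were called lower in that comparison. With scramble ectosomes 7 of the 12 fell and 1 rose, where 33.2% and 34.6% of all rows tested did. Of the 12, 7 were lower with PKM2-knockdown than with scramble ectosomes, as were 30.3% of all rows tested and 40.6% of rows with a mean of at least 10 CPM. MRTO4 (chromosome 1, 19251539 to 19260128, plus strand), a placeholder for the ribosomal stalk protein, had the largest fall of the 40 genes with PKM2-knockdown ectosomes. It stood at 25.9, 24.1 and 33.5 CPM with PKM2-knockdown ectosomes, 45.1, 47.3 and 44.6 CPM with scramble ectosomes, and 69.1, 66.1 and 68.6 CPM in controls, groups that did not overlap. Its fall was 2.44-fold with PKM2-knockdown ectosomes (log2 ratio -1.29 ± 0.11 SE, adjusted p = 5.49e-06) and 1.49-fold with scramble ectosomes (log2 ratio -0.57 ± 0.11 SE, adjusted p = 0.000811), and it was 1.64-fold lower with PKM2-knockdown than with scramble ectosomes (adjusted p = 0.000248). RRS1, which helps to bring in the 5S ribonucleoprotein, fell 2.24-fold with PKM2-knockdown ectosomes and 1.63-fold with scramble ectosomes, and NOP16 fell 2.10-fold with PKM2-knockdown ectosomes (1.71-fold without control replicate 3) and 1.55-fold with scramble ectosomes.

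PES1, BOP1 and WDR12 encode the PeBoW complex, which is needed for processing of the 60S ribosomal RNAs. All 3 fell with PKM2-knockdown ectosomes, by 1.604-fold, 1.56-fold and 1.81-fold (adjusted p = 0.000270, 0.000340 and 0.000165). PES1 (chromosome 22, 30576625 to 30607083, minus strand) stood at 62.1, 68.2 and 74.7 CPM with PKM2-knockdown ectosomes, 90.7, 98.0 and 107 CPM with scramble ectosomes, and 108, 98.8 and 122 CPM in controls. BOP1 stood at 101, 113 and 118 CPM with PKM2-knockdown ectosomes, 115, 110 and 113 CPM with scramble ectosomes, and 183, 147 and 188 CPM in controls. The scramble libraries thus overlapped the controls for PES1 and the PKM2-knockdown libraries for BOP1. PES1 was 1.44-fold lower with PKM2-knockdown than with scramble ectosomes (log2 ratio -0.53 ± 0.10 SE, adjusted p = 0.00120), while BOP1 and WDR12 were not called (log2 ratios -0.03 and -0.17, SE 0.10 and 0.12), and WDR12 was called lower without control replicate 3 (adjusted p = 0.0282). Whether the genes of the complex differ from each other in this was not tested.

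GRWD1 (chromosome 19, 48445773 to 48457022, plus strand), which encodes a chaperone of a 60S ribosomal protein, stood at 32.2, 31.7 and 32.7 CPM with PKM2-knockdown ectosomes, 66.3, 66.9 and 68.9 CPM with scramble ectosomes, and 49.3, 45.1 and 45.5 CPM in controls. The replicates were close and the 3 groups did not overlap. GRWD1 fell 1.45-fold with PKM2-knockdown ectosomes against control (log2 ratio -0.53 ± 0.07 SE, adjusted p = 0.000102), rose 1.44-fold with scramble ectosomes (log2 ratio 0.53 ± 0.07 SE, adjusted p = 5.08e-05) and was 2.09-fold lower with PKM2-knockdown than with scramble ectosomes (adjusted p = 6.12e-07). GNL3 (nucleostemin), a GTPase of growing and stem cells, was at 62.8, 61.4 and 66.8 CPM with PKM2-knockdown ectosomes, 110, 117 and 121 CPM with scramble ectosomes, and 100, 104 and 156 CPM in controls. It fell 1.89-fold against control and 1.83-fold against scramble ectosomes (adjusted p = 0.000393 and 0.000437). For scramble ectosomes against control its log2 ratio was -0.05 (SE 0.15, not called), which turned to 0.18 (adjusted p = 0.0158) without control replicate 3.

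RRP1 and RRP1B are paralogues that gave different calls. RRP1 (chromosome 21, 43789513 to 43805293, plus strand) stood at 35.0, 35.3 and 38.1 CPM with PKM2-knockdown ectosomes, 35.2, 34.3 and 38.1 CPM with scramble ectosomes, and 51.4, 49.6 and 56.4 CPM in controls. RRP1B (chromosome 21, 43659548 to 43696079, plus strand) stood at 45.7, 45.7 and 49.1 CPM with PKM2-knockdown ectosomes, 50.3, 51.9 and 50.8 CPM with scramble ectosomes, and 44.3, 42.4 and 54.0 CPM in controls. RRP1 was thus lower in both ectosome groups, and RRP1B overlapped the controls in both. RRP1 fell 1.45-fold with PKM2-knockdown ectosomes and 1.46-fold with scramble ectosomes (adjusted p = 0.000289 and 0.000146). RRP1B gave log2 ratios of -0.00096 (SE 0.10) and 0.12 (SE 0.09), and without control replicate 3 it was called higher with scramble ectosomes (adjusted p = 0.00485). NOP2, a methyltransferase of 28S ribosomal RNA, had means of 0.852 CPM with PKM2-knockdown ectosomes, 1.6001 CPM with scramble ectosomes and 0.993 CPM in controls, too low to weigh: 54.4% of its exonic bases are shared with AC006064.6 on the same strand. Its call between the 2 kinds of ectosomes (adjusted p = 0.0358, libraries overlapping) was lost in 6 of 15 alternatives. WDR74 fell 1.70-fold with PKM2-knockdown ectosomes and 1.44-fold with scramble ectosomes against control.

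**Figure D4:**
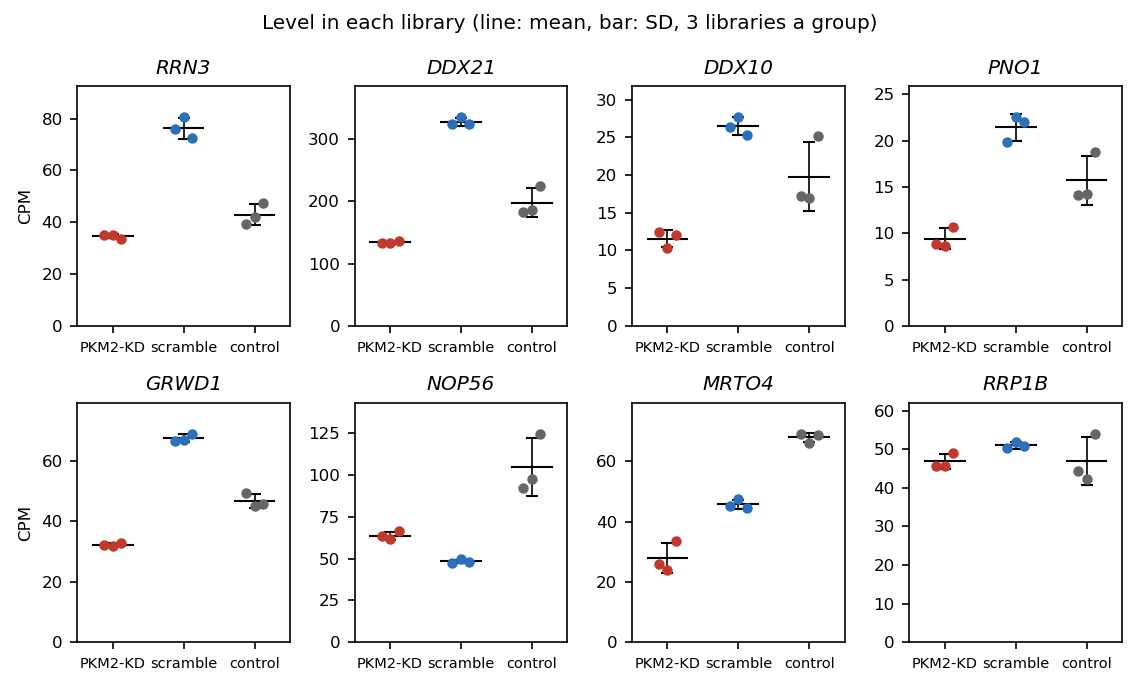
CPM of 8 of the genes in each library (points), with the group mean (line) and SD (bar, n = 3), for PKM2-knockdown ectosomes, scramble ectosomes and control from left to right. RRN3, DDX21, DDX10, PNO1 and GRWD1 are highest in the scramble libraries and lowest in the PKM2-knockdown libraries, NOP56 is lowest in the scramble libraries, MRTO4 is lowest in the PKM2-knockdown libraries, and RRP1B overlaps the controls in both ectosome groups.

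Transcripts of the abundant nucleolar proteins were lower with PKM2-knockdown ectosomes than in either other group in 3 of 3 cases. Over all rows tested 26.7% were called lower against control and 30.3% against scramble ectosomes. NPM1 (chromosome 5, 171387116 to 171411137, plus strand) encodes nucleophosmin, a histone and ribosome chaperone of the granular nucleolus. It stood at 461, 442 and 495 CPM with PKM2-knockdown ectosomes, 733, 784 and 777 CPM with scramble ectosomes, and 773, 743 and 1290 CPM in controls. The library of control replicate 3 was far above the others. NPM1 fell 2.01-fold against control (log2 ratio -1.01 ± 0.18 SE, adjusted p = 0.000768; 1.63-fold without control replicate 3) and 1.64-fold against scramble ectosomes (adjusted p = 0.00504). Between scramble ectosomes and control its log2 ratio of -0.29 (SE 0.18, adjusted p = 0.168) turned to 0.010 without control replicate 3. NCL (chromosome 2, 231453531 to 231483641, minus strand), encoding nucleolin, was at 472, 459 and 505 CPM with PKM2-knockdown ectosomes, 601, 650 and 646 CPM with scramble ectosomes, and 860, 817 and 1081 CPM in controls. It fell 1.92-fold with PKM2-knockdown ectosomes and 1.45-fold with scramble ectosomes (adjusted p = 3.63e-05 and 0.000980).

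DDX21 (chromosome 10, 68956128 to 68985073, plus strand), an RNA helicase that links polymerase I and II transcription to ribosomal RNA processing, had the largest difference of the 40 genes between the 2 kinds of ectosomes. It stood at 134, 132 and 137 CPM with PKM2-knockdown ectosomes, 324, 335 and 324 CPM with scramble ectosomes, and 183, 186 and 225 CPM in controls. The 3 groups did not overlap. DDX21 was 2.44-fold lower with PKM2-knockdown than with scramble ectosomes (log2 ratio -1.29 ± 0.09 SE, adjusted p = 8.29e-07). Against control it fell 1.47-fold with PKM2-knockdown ectosomes (log2 ratio -0.56 ± 0.09 SE, adjusted p = 0.000349) and rose 1.65-fold with scramble ectosomes (log2 ratio 0.73 ± 0.09 SE, adjusted p = 2.99e-05).

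Of the 40 genes, 22 fell with both kinds of ectosomes against control, 11 fell with PKM2-knockdown ectosomes and were not called with scramble ectosomes, and 5 fell with PKM2-knockdown ectosomes and rose with scramble ectosomes. The 22 hold all box C/D genes. Of the 22, BYSL, MRTO4, NCL, NOB1, NOP14, POLR1A, RRS1, WDR43 and WDR74 were also lower with PKM2-knockdown than with scramble ectosomes, 9 in all. Of these 9, POLR1A, WDR43, NOP14 and WDR74 lost that call with library totals and without PKM2-knockdown replicate 1 or 2, which left 5, and WDR74 was not called in 10 of 15 alternatives. Another 12 were not called between the 2 kinds of ectosomes. The shares of all rows tested with these joint patterns are not given here, so the counts are not read as particular to the 40 genes. Taken singly, 26.7% of all rows tested were called lower with PKM2-knockdown ectosomes against control. With scramble ectosomes against control 33.2% were called lower and 34.6% higher. Between PKM2-knockdown and scramble ectosomes 30.3% were called lower.

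Other genes of ribosome biogenesis, 119 in 5 lists of which 118 were tested, were mostly lower with PKM2-knockdown ectosomes than in controls: 94 fell (79.7% of those tested, where 26.7% of all rows tested did) and 2 rose, the median log2 ratio being -0.51. With scramble ectosomes 44 fell and 26 rose (median -0.13), shares of 37.3% and 22.0% where 33.2% and 34.6% of all rows tested were called, and with library totals 67 fell and 15 rose. Between PKM2-knockdown and scramble ectosomes 62 were lower and 10 higher (52.5% and 8.47%, where 30.3% and 31.4% of all rows tested were; median -0.34), or 52 and 20 with library totals. IMP4, a partner of the U3 particle, had means of 23.7 CPM with PKM2-knockdown ectosomes, 38.2 CPM with scramble ectosomes and 54.2 CPM in controls, and fell 2.28-fold with PKM2-knockdown ectosomes (adjusted p = 5.89e-06). DKC1, the pseudouridine synthase dyskerin, fell 2.20-fold (adjusted p = 1.00e-05). SBDS, which helps to release the factor EIF6 from late 60S particles, and EIF6 itself rose with scramble ectosomes by 1.91-fold and 1.83-fold (adjusted p = 5.73e-06 and 2.87e-06). SBDS had means of 26.6 CPM with PKM2-knockdown ectosomes, 64.4 CPM with scramble ectosomes and 33.6 CPM in controls. URB1, of the same list of 45 other 60S factors, fell 1.87-fold with scramble ectosomes (adjusted p = 7.90e-06). In that list 12 rose and 15 fell with scramble ectosomes, shares of 26.7% and 33.3% where 34.6% and 33.2% of all rows tested did. Of 14 nuclear exosome genes, whose products trim ribosomal RNA precursors, 10 fell and 1 (EXOSC4, 1.83-fold) rose with PKM2-knockdown ectosomes against control. These were shares of 71.4% and 7.14%, where 26.7% and 27% of all rows tested fell and rose. With scramble ectosomes 5 fell, among them EXOSC5 by 4.64-fold, and 4 rose. Those shares, 35.7% and 28.6%, were near the 33.2% and 34.6% of all rows tested.

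**Figure D5:**
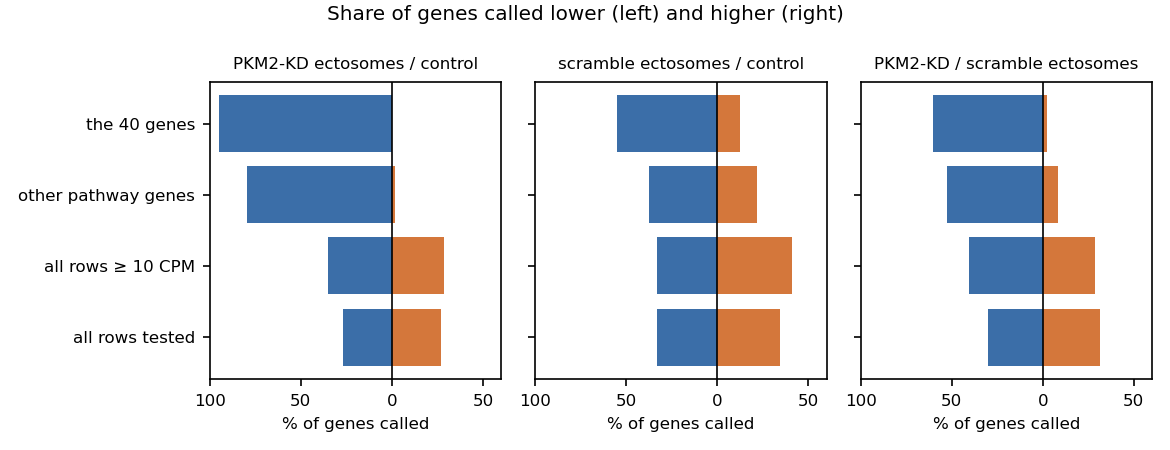
Share of genes called lower (blue, left of 0) and higher (orange, right of 0), in percent, for the 40 genes, the 118 other pathway genes tested, rows with a mean of at least 10 CPM and all rows tested, in each of the 3 comparisons. With PKM2-knockdown ectosomes against control 38 of the 40 genes were lower, where 26.7% of all rows tested were.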

How the data were processed

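RNA of 9 THP-1 libraries was profiled; per the labels' protocols it was extracted with Trizol and made into libraries with an NEBNext Ultra RNA kit. The authors deposited a table of raw counts per gene symbol with no normalization. Per the submitters' processing notes, the tools were HISAT2 2.0.5 and featureCounts 1.5.0-p3 on GRCh38/hg38. No source used here gives the annotation release, strand setting or filters, so reads of overlapping genes, antisense genes and near copies cannot be told apart.

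The counts were fitted with edgeR 4.0.16 (R 4.3.3): filterByExpr by group, which kept at least 99.8% of each library, TMM scaling, and 1 quasi-likelihood model over all 9 libraries with group as the term (6 residual degrees of freedom, common biological coefficient of variation 13.3%). Tests were two-sided, with Benjamini-Hochberg adjustment over 18437 rows and a threshold of 0.05, and every adjusted p is from this test unless another is named. The SE is the absolute log2 fold change over the square root of F. The scripts were tested on simulated counts. Gene positions and exonic lengths came from GENCODE release 29 on GRCh38. Counts limit the precision: NOP2 had about 1 CPM. Alternatives were RLE scaling, library totals, no filter, DESeq2 1.42.0, a replicate block, only the 2 groups compared, and leaving out each library. The 40 genes and all lists were chosen with earlier results of these data known. All 40 genes could be named, and of the other lists up to 3 genes with the smallest p in a comparison, plus MYC. ALB, TTR, HNF4A, PTPRC, CD68, MPO and PKM are named as checks of the labels.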

Additional observations from a re-analysis of the deposited data

Results flagged for a closer look

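For 5 of the 40 genes the effects of the 2 kinds of ectosomes against control were called in opposite directions, lower with PKM2-knockdown and higher with scramble ectosomes, and the difference between them was itself called. That difference, as the log2 fold change of PKM2-knockdown over scramble ectosomes, was -1.14 for RRN3, -1.19 for DDX10, -1.19 for PNO1, -1.06 for GRWD1 and -1.29 for DDX21. Every PKM2-knockdown library was below every scramble library in each of the 5, as in 37.1% of all rows tested. The 5 were picked by opposite calls against the same controls, so a difference between the ectosome groups follows largely from that choice. The share of all rows tested with such opposite calls is not given here. The difference was called under all 15 alternatives for these 5 genes, with the highest adjusted p 0.000662, for DDX10. The rise of DDX10 and PNO1 against control was less stable than their fall. The 2 effects share their control libraries, so they are not independent. What lies behind the opposite directions was not tested.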

How the results depend on the processing

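The count of the 40 genes lower with PKM2-knockdown ectosomes against control was 38 in the 6 alternatives that kept all libraries and 36 to 38 with a library left out, and 0 were higher in all 15. With scramble ectosomes against control, 3 of the 40 were higher with library totals and 3 to 9 with a library left out (3 without control replicate 2, 9 without control replicate 3), and of the other pathway genes 15 were higher and 67 lower with library totals. Between PKM2-knockdown and scramble ectosomes 2 of the 40 were higher with library totals, and of the other pathway genes 20 were higher with library totals and 17 with only the 2 groups compared. The counts lower among the 40 stayed within 1.5 times of the reported ones in all 15 alternatives. The count at least 2-fold lower with PKM2-knockdown ectosomes against control, 8, was 7 to 9 with all libraries kept and 3 to 13 with a library left out, and the 9 genes lower in both comparisons with control and between the ectosomes became 5 with library totals and 5 to 9 with a library left out. Values that turned in sign were all of results not called as reported, and the cause was not tested. With library totals these were, for scramble ectosomes against control, POLR1C (-0.082), UTP4 (-0.023), UTP20 (-0.18), RRP12 (-0.14) and RRP1B (-0.081), and between the 2 kinds of ectosomes BOP1 (0.15), WDR12 (0.0088) and RRP1B (0.052), as log2 ratios. UTP20 against control turned to -0.018 with no filter and to -0.023 with only the 2 groups compared, BOP1 to 0.00088 with no filter, and RRP1 to -0.0068 with the DESeq2 Wald test. With a library left out, ranges that crossed 0 were, for scramble ectosomes against control, -0.44 to 0.020 for UTP15, -0.43 to 0.027 for WDR75, -0.050 to 0.17 for UTP20, -0.37 to 0.063 for LTV1, -0.16 to 0.18 for GNL3 and -0.43 to 0.010 for NPM1; for PKM2-knockdown ectosomes against control -0.070 to 0.11 for RRP1B; and between the 2 kinds of ectosomes -0.072 to 0.037 for BOP1 and -0.025 to 0.052 for RRP1. The labels do not say whether replicate numbers pair the samples. Deviations from the group means correlated at -0.094 to 0.067 between same-numbered libraries, which cannot show how the samples were prepared. A replicate block left 118 of 120 results of single genes the same, ended the call of WDR74 between the 2 kinds of ectosomes (adjusted p = 0.0527) and gave RRP1B a log2 ratio of 0.0032 against control. Borderline calls of BYSL, DDX10, LTV1, NOP14, POLR1A, PNO1, UTP15, WDR43, WDR74 and WDR75 were lost in some alternatives, and NOP2 is limited by its few reads.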
